A study of Mus musculus with 15 samples.

Results

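Fkbp5, Sgk1, Tsc22d3, Zbtb16, Cdkn1a, Plin4, Mt1, Mt2, Pdk4 and Errfi1 are genes whose transcription is known to respond to glucocorticoids. They were picked by name, and all 10 were found by symbol among the 29659 genes listed for each library. The study asked how loss of the inhibitory myeloid receptor Lilrb4a acts on amyloid disease in mice with human APOE4, and sequenced polyA RNA from the thalamus of mice aged 4.5 months. All 15 mice were labelled as carrying 2 copies of human APOE4 knocked in, so no group was meant to show these genes on a mouse Apoe background. The 5EL group (5xFAD/APOE4+/+/Lilrb4a+/+, 5 libraries) and the 5ELKO group (5xFAD/APOE4+/+/Lilrb4a-/-, 4 libraries) carried the 5xFAD transgenes, which drive amyloid deposition from a neuronal promoter. The EL group (APOE4+/+ with Lilrb4a, 3 libraries) and the ELKO group (APOE4+/+/Lilrb4a-/-, 3 libraries) lacked 5xFAD. Hormone levels and the hour of death are not given in the sources used here, and the pieces were bulk tissue, in which fewer cells of a type and less RNA per cell cannot be told apart. Values are the deposited normalised expression levels on the log2 scale, so a difference of 1 is a doubling, and they carry no counts, so the depth behind each value is not known. Read totals and RNA integrity numbers that the study lists for 5EL and 5ELKO were not used here. That list holds 5 libraries of 5ELKO, of which 4 were available here.

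Glucocorticoids are the adrenal stress hormones, chiefly corticosterone in mice. They enter cells and bind the glucocorticoid receptor, Nr3c1, which is held by heat shock proteins in the cytoplasm until the hormone arrives, and the bound receptor then moves to the nucleus and raises or lowers transcription of its target genes. In brain these targets are spread over astrocytes, oligodendrocytes, endothelial cells and neurons, and their transcripts follow the circulating hormone, which varies with time of day and with handling.

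The libraries were checked against their labels. Lilrb4a was near the bottom of the scale everywhere, at 2.33 in each of the 7 libraries of deleted mice and from 2.35 to 2.66 in the other 8, without overlap. The endogenous mouse Apoe transcript stood at 5.92 to 6.37 in 14 libraries but at 10.9 in replicate 1 of ELKO, which thus went against the genotype shared by all groups. Ttr, the most abundant choroid plexus transcript, was 13.7 in 5EL replicate 1 and 14.7 in ELKO replicate 2 and at most 10.3 in the other 13, and the genotype differences of Zbtb16, Fkbp5 and Cdkn1a are given with and without these 3 libraries where that moved them most. All 10 thalamic neuron markers were expressed, and the log2 of their summed linear levels was 15.8 to 16.2 over the libraries. Sums of the other marker lists are given in the same way, so the most abundant markers weigh most. All 4 Y-linked genes checked were detected in every library.

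A receptor dimer binds a palindrome in DNA, the glucocorticoid response element, and metallothionein genes also carry metal response elements, which bind the zinc-sensing factor MTF1. The RefSeq promoter table for GRCm38.p6 held 18 start sites of 9 of the 10 genes. Zbtb16 had no entry. In the 250 bases before each start, both strands were searched for the full palindrome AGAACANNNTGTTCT, for a relaxed form, GNACANNNTGTNC, that includes it, and for the metal response elements TGCACNC and TGCGCNC. The full palindrome was present in 0.00913% of all 32851 windows of this length, the relaxed form in 0.387% and a metal response element in 21.4%. Of the 18 windows, 1 held the full palindrome, 2 the relaxed form and 2 a metal response element. These 3 windows are shown, as they are the ones in which a motif was found, all on the plus strand, 5′ to 3′. Capitals mark the full palindrome in Sgk1 (chr10:21993640-21993889), the relaxed form and then the metal response element in Mt1 (chr8:94178839-94179088), and the 3 metal response elements in Mt2 (chr8:94172368-94172617).
Sgk1: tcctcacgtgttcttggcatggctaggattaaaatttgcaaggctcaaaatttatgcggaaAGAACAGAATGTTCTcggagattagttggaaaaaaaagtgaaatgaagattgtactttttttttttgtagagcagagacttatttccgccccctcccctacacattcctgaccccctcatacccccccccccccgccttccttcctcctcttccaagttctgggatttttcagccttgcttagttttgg
Mt1: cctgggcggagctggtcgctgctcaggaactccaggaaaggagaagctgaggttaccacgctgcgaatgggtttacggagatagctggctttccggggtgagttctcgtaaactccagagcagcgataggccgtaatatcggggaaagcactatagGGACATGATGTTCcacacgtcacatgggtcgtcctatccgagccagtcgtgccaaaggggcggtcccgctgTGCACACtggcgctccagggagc
Mt2: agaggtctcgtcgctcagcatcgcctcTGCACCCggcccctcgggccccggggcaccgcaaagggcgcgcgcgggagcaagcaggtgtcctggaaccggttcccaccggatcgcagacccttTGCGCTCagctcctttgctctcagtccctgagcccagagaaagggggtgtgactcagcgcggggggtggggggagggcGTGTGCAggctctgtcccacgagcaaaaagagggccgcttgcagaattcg
The Sgk1 palindrome began 189 bases before the start site, the relaxed form in Mt1 94 bases before, and its metal response element 23 bases before. In Mt2 the elements began 223, 128 and 50 bases before, the last of them on the minus strand. In GENCODE M21 the last 7 bases of the Mt1 window lie in an annotated exon of Mt1, and all 250 of the Mt2 window in an exon of Gm45774 on the other strand. A match of letters is a description of the window and not a measured binding site.

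The genes were first described one by one, from the regulators of hormone action to the metabolic and metal-binding genes. Coordinates are those of GRCm38 with the GENCODE M21 annotation.

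Fkbp5 encodes a co-chaperone that lowers the receptor's affinity for hormone and so forms a feedback loop (chromosome 17, 28399094 to 28517527, minus strand). Its log2 value was 10.06, 9.78, 10.23, 10.10 and 9.95 in 5EL, 10.70, 9.58, 9.57 and 9.86 in 5ELKO, 9.75, 9.44 and 9.76 in EL, and 10.49, 9.67 and 9.82 in ELKO. Replicate 1 stood above the rest in both deleted groups, and all 5EL values lay above all EL values. Sgk1, a kinase that acts on ion channels and transporters (chromosome 10, 21882184 to 21999903, plus strand), was 11.86, 10.84, 11.94, 11.52 and 11.56 in 5EL, 11.998, 11.11, 11.86 and 11.85 in 5ELKO, 11.06, 11.72 and 11.77 in EL, and 11.78, 11.53 and 11.88 in ELKO. Here the low libraries stood out, namely replicate 2 of 5EL, replicate 2 of 5ELKO and replicate 1 of EL, and the groups overlapped. Tsc22d3 encodes the leucine zipper protein GILZ, which restrains inflammatory transcription (chromosome X, 140539528 to 140600659, minus strand). Its values were 11.79, 11.33, 11.996, 11.55 and 11.52 in 5EL, 11.84, 11.28, 11.40 and 11.61 in 5ELKO, 11.42, 11.78 and 11.88 in EL, and 11.81, 11.46 and 11.74 in ELKO. The same 3 libraries were the lowest of their groups.

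Zbtb16 encodes PLZF, a zinc finger transcription factor (chromosome 9, 48654297 to 48836222, minus strand). It was 9.12, 8.84, 9.07, 8.82 and 8.69 in 5EL, 9.16, 7.97, 8.59 and 8.55 in 5ELKO, 8.05, 8.27 and 7.78 in EL, and 9.23, 8.10 and 7.83 in ELKO. The 5EL values were tightly grouped and all above EL, while ELKO held both the highest value of the series and the second lowest. Cdkn1a encodes p21, which halts the cell cycle and is also a p53 target (chromosome 17, 29090976 to 29100727, plus strand). Its values were 9.25, 8.90, 9.58, 9.21 and 8.91 in 5EL, 9.88, 8.62, 9.10 and 8.86 in 5ELKO, 8.69, 8.64 and 9.01 in EL, and 9.62, 8.73 and 8.97 in ELKO. As for Fkbp5, replicate 1 of each deleted group stood above the others. Errfi1 encodes an inhibitor of the EGF receptor (chromosome 4, 150853919 to 150868892, plus strand), with values of 9.89, 9.46, 9.94, 9.88 and 9.92 in 5EL, 10.07, 9.69, 9.77 and 9.76 in 5ELKO, 9.57, 9.81 and 9.88 in EL, and 9.97, 9.48 and 9.81 in ELKO. Replicate 2 was the lowest Errfi1 library in 5EL, 5ELKO and ELKO.

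Plin4, a lipid droplet coat protein (chromosome 17, 56100591 to 56109803, minus strand), was 9.22, 9.78, 9.07, 9.47 and 9.44 in 5EL, 9.95, 8.47, 9.53 and 9.49 in 5ELKO, 8.97, 9.03 and 9.14 in EL, and 9.89, 8.94 and 9.09 in ELKO. Unlike Sgk1, it was highest, not lowest, in replicate 2 of 5EL. Pdk4 encodes a kinase that shuts pyruvate dehydrogenase and so spares glucose (chromosome 6, 5483351 to 5496309, minus strand). Its values were 7.87, 7.39, 7.996, 7.50 and 7.59 in 5EL, 8.04, 7.65, 7.84 and 7.78 in 5ELKO, 7.41, 7.62 and 7.55 in EL, and 7.90, 7.71 and 7.55 in ELKO. For Pdk4 the groups overlapped in each of the 4 comparisons made, and replicate 1 of 5EL and replicate 3 of 5EL were the high pair of their group.

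Mt1 and Mt2 encode metallothioneins, small proteins that bind zinc and copper, and lie beside each other on the plus strand of chromosome 8 (94179082 to 94180327 and 94172664 to 94173568). Mt1 was 11.51, 11.79, 11.93, 11.84 and 11.60 in 5EL, 12.12, 11.21, 11.73 and 11.95 in 5ELKO, 11.63, 11.68 and 11.997 in EL, and 11.81, 11.65 and 12.04 in ELKO. Mt2 was 10.74, 11.07, 11.20, 11.03 and 10.88 in 5EL, 11.41, 10.40, 10.82 and 11.11 in 5ELKO, 10.86, 10.94 and 11.34 in EL, and 11.08, 10.84 and 11.42 in ELKO. Both were highest in replicate 1 and lowest in replicate 2 of 5ELKO, and highest in replicate 3 of each other group. The longest run of bases shared by their annotated transcripts was 20. The counting ignored strand. Of the exon bases of Mt2, 73.5% are shared with the antisense gene Gm45774, and of those of Cdkn1a 7.68% with AC167363.2. Read pairs over such bases stayed unassigned where the annotation used held both genes. Where it held only one of them, the counts could include antisense reads. Gm45774 is not among the genes listed for the libraries, but which case held for Mt2 was not tested, so the level of Mt2 in particular is uncertain. Plin4 shares 17 exon bases with Hdgfl2, and the other 7 genes share none.

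**Figure D1:**
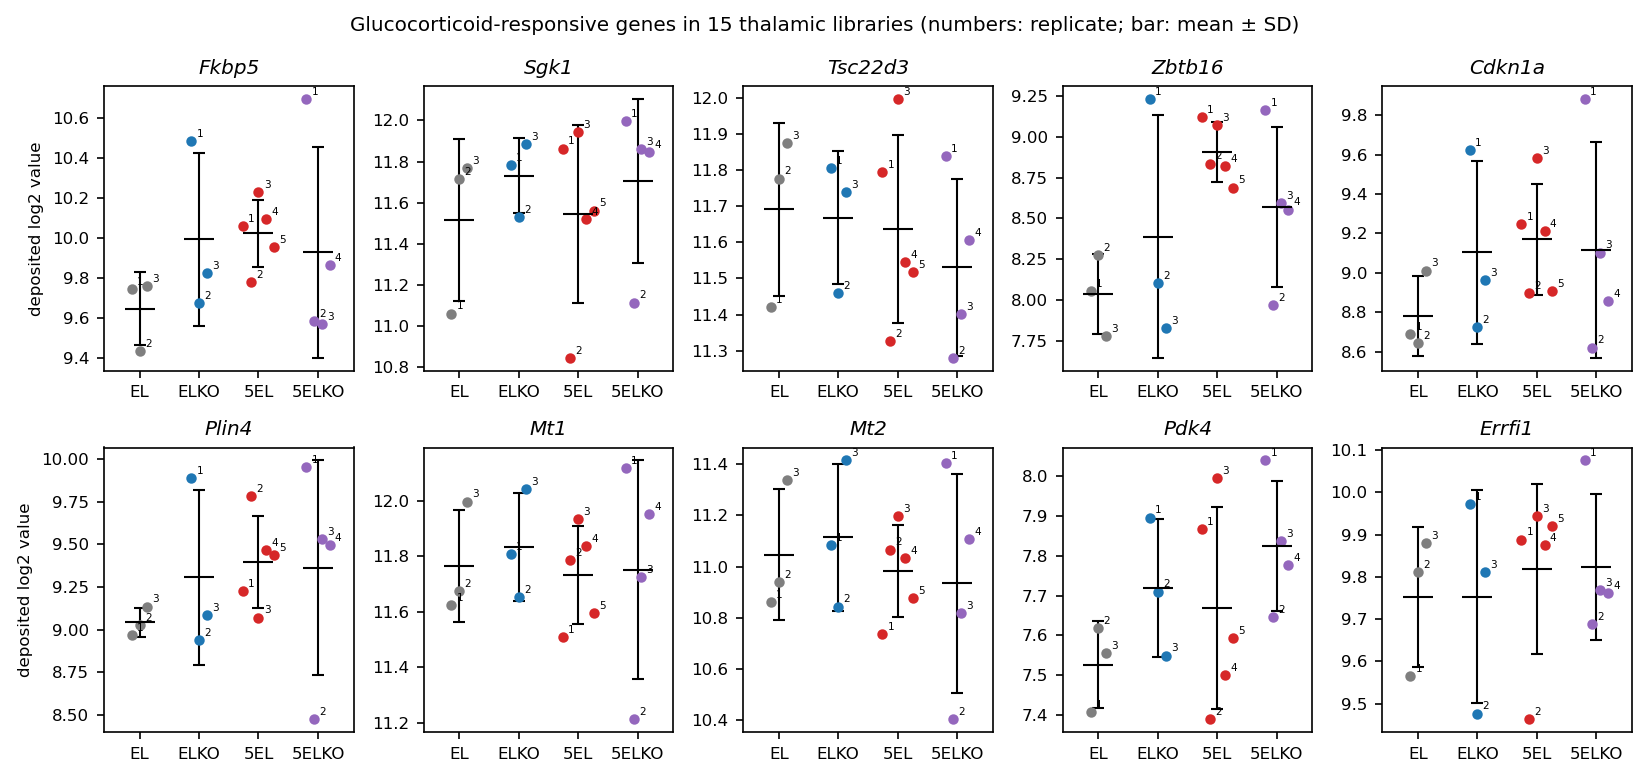
Each panel plots the deposited log2 value of 1 gene (vertical axis, its own scale per panel) in the 15 libraries by genotype (horizontal axis). Points are libraries numbered by replicate, and the black marks are the group mean ± SD. Zbtb16 and Fkbp5 in 5EL lie wholly above EL, and replicate 1 of 5ELKO is the highest library of its group in all 10 panels.

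The main question of the study was what deletion of Lilrb4a changes in 5xFAD mice. In 5ELKO against 5EL none of the 10 genes passed the study's nominal threshold of p under 0.05, beside 2.49% of the 15743 genes tested with limma. The differences ran from -0.34 to 0.16 on the log2 scale, with 4 positive and 6 negative, and a median of -0.04 beside 0.00 for all genes tested. Zbtb16 had the lowest p, with a difference of -0.34 ± 0.18 (SE; nominal p = 0.0860, adjusted p = 0.999, limma) and overlapping groups (exact permutation p = 0.175, two-sided). The 95% intervals left room for sizeable changes, from -0.51 to 0.32 for Fkbp5, from -0.31 to 0.63 for Sgk1 and from -0.22 to 0.23 for Errfi1, the narrowest of the 10. Of 12 hepatocyte markers, 10 were higher in 5ELKO at the nominal threshold. The log2 of the summed linear levels of all 12 was 10.4 to 11.2 in 5ELKO. It was 10.2 to 13.8 in 5EL, where Ttr, counted among these markers, was high in replicate 1. Their part in the values of the 10 genes was not tested. A single library weighed on this comparison. Without replicate 1 of 5ELKO, the differences of Fkbp5 (-0.35) and Zbtb16 (-0.54) passed the nominal threshold of limma, beside 499 of all genes. That library was the highest of its group in all 10 genes. Without replicate 3 of 5EL that of Pdk4 passed (0.24), beside 393 of all genes. The numbers of genes tested in these refits are not given here, so the counts are not shares.

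Without 5xFAD, in ELKO against EL, again none of the 10 genes passed, beside 2.35% of 15804 genes. Of the differences, 9 were positive and 1 was negative, with a median of 0.20 beside 0.00 for all genes. The largest were those of Zbtb16 (0.35 ± 0.31, SE), Fkbp5 (0.35 ± 0.25) and Cdkn1a (0.32 ± 0.28), and in each the groups overlapped, with two-sided exact permutation p of 0.6, 0.4 and 0.4. With 3 libraries on each side the exact test could not go below p = 0.1. The values turned on single ELKO libraries. Without ELKO replicate 1, the library with mouse Apoe, Fkbp5 differed by 0.10, Cdkn1a by 0.06 and Zbtb16 by -0.068. Without ELKO replicate 2, which had high Ttr, they differed by 0.51, 0.51 and 0.495. None of these passed the nominal threshold. Without all 3 libraries that stood apart they differed by 0.18, 0.18 and -0.21, with ELKO replicate 3 the only library left in its group. The labels do not say whether ELKO and EL libraries of the same number are paired. With the numbers taken as a block, 997 genes passed in place of 372, still with none of the 10. All 3 erythroid markers tested were lower in ELKO, with sums of 6.80 to 6.95 against 7.22 to 9.44 in EL, and their part was not tested.

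The 5xFAD comparison with Lilrb4a intact gave the clearest difference. In 5EL against EL, Zbtb16 was 8.91 ± 0.18 (SD, n = 5) against 8.03 ± 0.25 (SD, n = 3), a log2 difference of 0.87 ± 0.27 (SE) or 1.83-fold, with all 5 values of 5EL above all 3 of EL. By limma it had a nominal p of 0.00595 but an adjusted p of 0.631 over all genes, and the two-sided exact permutation p of 0.0179 was the smallest that these group sizes allow. It was 1 of 10 genes past the nominal threshold, beside 7.70% of all 15804 genes, so the share among the 10 was close to the background. No gene of the whole table passed after adjustment, and 1217 passed at the nominal threshold. Leaving out each library in turn gave 0.75 to 0.99 for Zbtb16, and leaving out the 2 libraries with high Ttr gave 0.82. Fkbp5 was the other gene whose groups did not overlap, which makes 2 of 10 beside 3.26% of all genes, at 10.02 ± 0.17 against 9.65 ± 0.18 (difference 0.38 ± 0.22, nominal p = 0.113 with limma, exact permutation p = 0.0357). Cdkn1a differed by 0.39 ± 0.25 and Plin4 by 0.35 ± 0.27, with overlapping groups. With the spread taken from these 8 libraries alone, Fkbp5, Plin4 and Cdkn1a passed the nominal limma threshold as well. That makes 4 of the 10, beside 916 genes of the whole table in that fit. The number of genes tested in that fit is not given here, so the 4 of 10 has no background share beside it. The SD of Fkbp5, Plin4 and Cdkn1a was 0.085 to 0.283 in EL and 5EL and 0.432 to 0.628 in ELKO and 5ELKO. The other 6 genes differed by -0.06 to 0.14.

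Cell type markers also differed in this comparison. The microglial markers Csf1r, C1qa, C1qc and Cd68 were higher in 5EL at the nominal threshold. All 10 markers of the list were expressed, and the log2 of their summed linear levels was 12.6 to 12.9 in 5EL and 12.5 to 12.6 in EL. Of 10 thalamic markers 4 were lower (Lef1, Rora, Prkcd and Ntng1), with sums of 15.8 to 16.1 against 16.1 to 16.2, and of 10 astrocyte markers Gfap alone was called, higher in 5EL, with astrocyte sums of 16.3 to 16.5 against 16.4 to 16.5. None of the markers in these 3 lists was at 0. Their part in the Zbtb16 and Fkbp5 differences was not tested.

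In 5ELKO against ELKO none of the 10 genes passed, beside 2.37% of genes, with differences of -0.18 to 0.18 and a median of -0.01. Zbtb16 differed by 0.18 ± 0.29 and its value turned on single libraries. It was 0.60 without ELKO replicate 1, which passed the nominal threshold of limma beside 794 of all genes. The Zbtb16 difference was -0.02 without 5ELKO replicate 1 and -0.10 without ELKO replicate 3. The difference between the deletion effects with and without 5xFAD, tested as an interaction, was negative for 9 of the 10 genes and passed for none, beside 2.73% of genes. It was -0.69 ± 0.40 for Zbtb16 (SE), -0.44 ± 0.32 for Fkbp5 and -0.38 ± 0.36 for Cdkn1a, each with a limma adjusted p of 0.9996. Without 5ELKO replicate 1, the highest library of its group in all 10 genes, these became -0.89, -0.70 and -0.63. All 3 passed the nominal threshold of limma, beside 427 of all genes. Zbtb16 also passed without ELKO replicate 3, at -0.97 beside 851 of all genes. With same-numbered libraries as a replicate block it passed at -0.75, beside 784. These counts of all genes, and the 794 above, are not shares, as the numbers tested in the refits are not given here. Without ELKO replicate 1, the library with mouse Apoe, the values shrank to -0.27 for Zbtb16, -0.20 for Fkbp5 and -0.12 for Cdkn1a. They were -0.83, -0.60 and -0.57 without ELKO replicate 2, and none of these passed. Without all 3 libraries that stood apart, ELKO replicate 3 alone was left in its group and the values were -0.076, -0.26 and -0.22. The effect of 5xFAD on Zbtb16 was thus past the nominal threshold with Lilrb4a and not without it, but the test of that difference did not pass with all 15 libraries unless they were blocked. The comparisons share libraries and are not independent of each other.

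**Figure D2:**
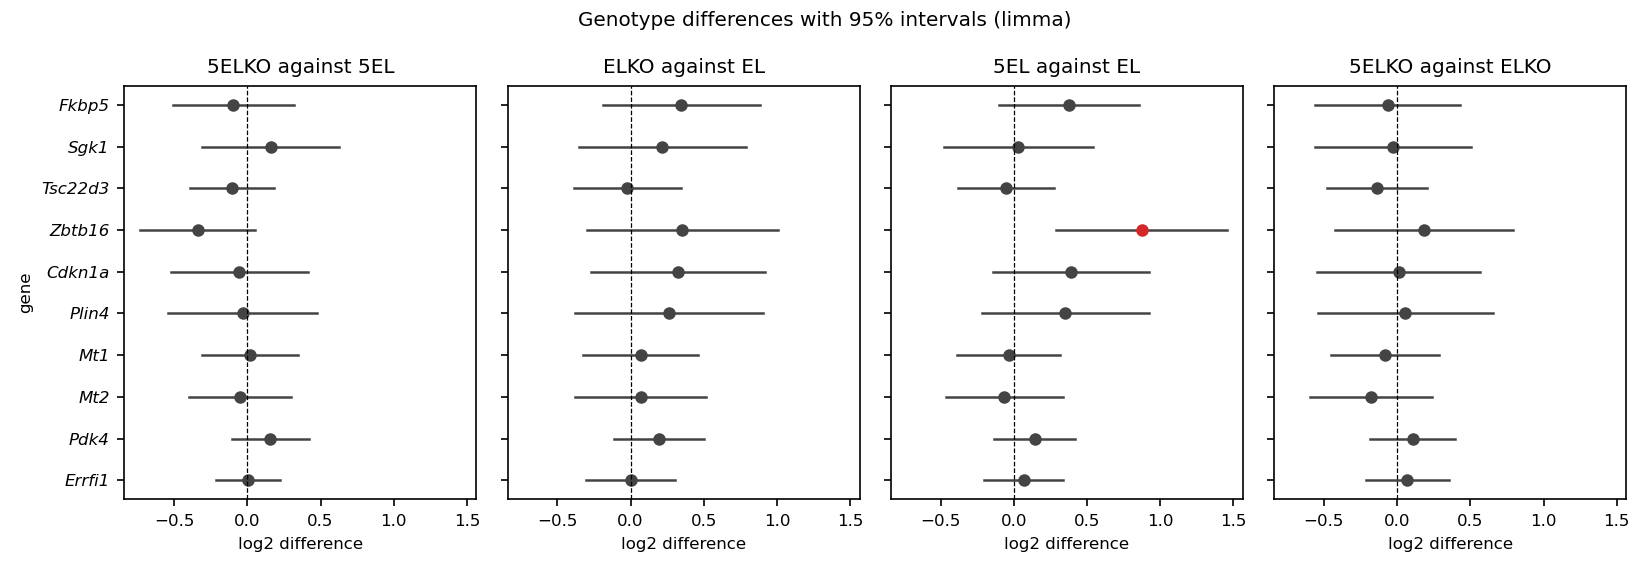
Points are log2 differences between the first and second genotype named above each panel (horizontal axis) for the 10 genes (vertical axis), and lines are 95% intervals from limma. The red point, Zbtb16 in 5EL against EL at 0.87, is the only one past the nominal threshold, and 1 interval of the 40 excludes 0.

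These genes varied widely between mice of the same genotype. Their within-group SD ran from 0.196 for Pdk4 to 0.435 for Zbtb16, above that of 91.8% to 99.2% of all genes tested, whose median was 0.098. Within 5ELKO the highest library exceeded the lowest 2.29-fold for Zbtb16 and 2.18-fold for Fkbp5, and within ELKO Zbtb16 ranged over 2.65-fold. The genes moved in the same libraries. Replicate 1 was the highest of the 4 5ELKO libraries in all 10 genes, by 0.22 to 0.77 above the group mean, whereas it was the highest in 22.9% of all genes. Replicate 2 of 5ELKO lay 0.14 to 0.89 below the group mean and was the lowest in 9 of the 10, and it was the lowest in 28.0% of all genes. In the other groups, 5EL replicate 3 was highest in 8 and replicate 2 lowest in 6, EL replicate 3 was highest in 8 and replicate 1 lowest in 7, and ELKO replicate 1 was highest in 7 and replicate 2 lowest in 8.

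**Figure D3:**
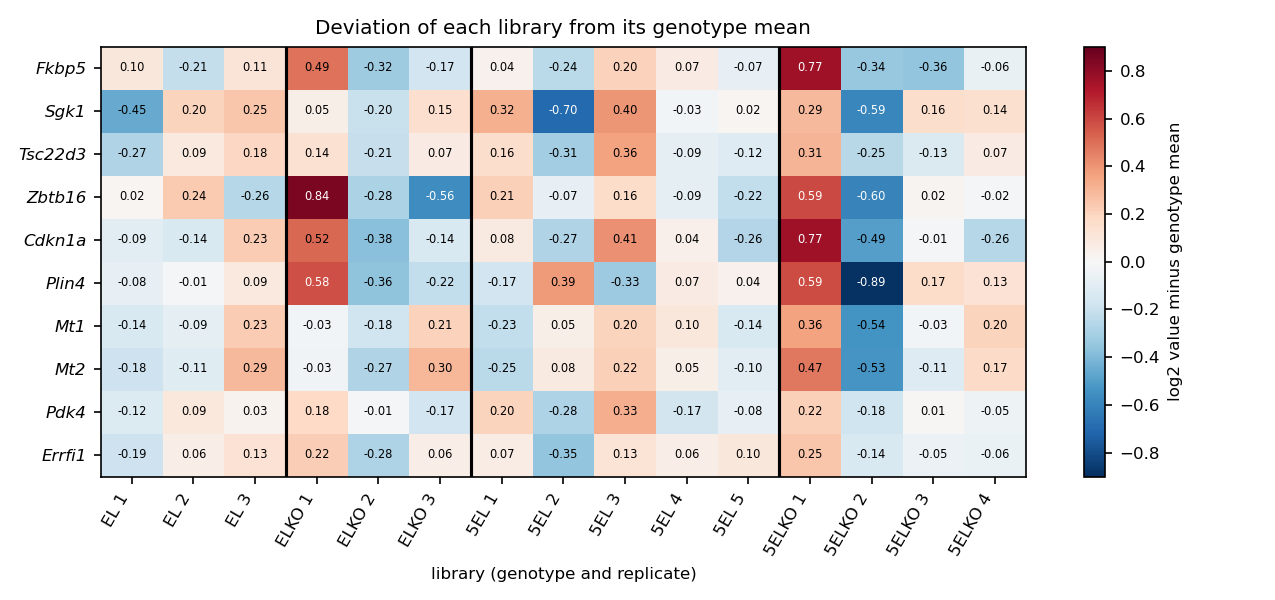
Each cell gives the log2 value of a gene (rows) in a library (columns, grouped by genotype) minus the mean of its genotype, with red above and blue below. The column of 5ELKO replicate 1 is red in all 10 rows and that of 5ELKO replicate 2 is blue in all 10, and ELKO replicate 1 is strongest in Zbtb16, Plin4, Cdkn1a and Fkbp5.

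To measure this, the deviations from the genotype means were correlated over the 15 libraries for all 45 pairs of the 10 genes. All 45 correlations were positive, with Pearson r from 0.186 to 0.980 and a median of 0.603, and 32 pairs (71.1%) reached 0.5. Over all pairs of the 15804 genes the median was -0.001, and 11.6% reached 0.5. Those genes were not matched to the 10 for spread, which was wide in the 10. By permutation of libraries within genotypes, with Benjamini-Hochberg adjustment over the 45 pairs, 13 pairs passed 0.05 by Pearson and 15 by Spearman correlation. The permutations did not keep any pairing of EL with ELKO libraries by replicate number. The points share dissection, RNA preparation and normalisation by library, and the adjustment does not account for the choice of genes known to respond to 1 hormone.

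Mt1 and Mt2 were nearly collinear, with r = 0.980 and rho = 0.964 (both permutation p = 3e-05, adjusted p = 0.00113 and 0.00135). The correlation was 0.982 without the 2 libraries farthest from the median of Mt1. For each pair below, the farthest libraries are likewise those of the gene named first. Sgk1 and Tsc22d3, the kinase and GILZ, had r = 0.877 and rho = 0.900 (permutation p = 5e-05 and 0.00023, adjusted p = 0.00113 and 0.0039), and r was 0.874 without the 2 farthest libraries. Of the 6 pairs that these 2 genes form with each other, Errfi1 and Pdk4, 5 passed by Pearson correlation. The exception was Pdk4 with Errfi1, at r = 0.657 (rho = 0.732, permutation p = 0.0166 and 0.00495, adjusted p = 0.0520 and 0.0197) and 0.566 without the 2 farthest libraries. All 6 pairs of Fkbp5, Tsc22d3, Cdkn1a and Errfi1 passed as well, with r from 0.659 to 0.902. Tsc22d3 reached 0.829 with Errfi1 (rho = 0.868, permutation p = 0.00016 and 0.00026, adjusted p = 0.0024 and 0.0039) and 0.737 without the 2 farthest libraries. Tsc22d3 and Pdk4 had r = 0.820 (rho = 0.836, permutation p = 0.00177 and 0.00126, adjusted p = 0.0112 and 0.0120) and 0.764 without them. Sgk1 and Errfi1 had r = 0.796 (rho = 0.725, permutation p = 0.00075 and 0.0034, adjusted p = 0.00844 and 0.0170) and 0.675 without them.

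For the pairs of Fkbp5 that follow, the libraries left out were replicate 1 of both deleted groups. Those left out above for Sgk1, Tsc22d3 and Pdk4 were others, so how far each relation rested on replicate 1 was not compared. Fkbp5 and Cdkn1a had r = 0.902 and rho = 0.818 (permutation p = 0.00201 and 0.00299, adjusted p = 0.0112 and 0.0168), and r was 0.641 without 5ELKO replicate 1 and ELKO replicate 1, the 2 libraries farthest from the median of Fkbp5. For Fkbp5 and Zbtb16, r was 0.733 and rho 0.511 (permutation p = 0.0461 and 0.128, adjusted p = 0.104 and 0.180), and r was 0.048 without those 2 libraries, so that relation rested on them. Fkbp5 and Plin4 went from r = 0.581 (rho = 0.343, permutation p = 0.198 and 0.326, adjusted p = 0.241 and 0.387) to -0.121. Plin4 was in none of the 13 pairs, and Mt1 and Mt2 only in their own. Over the 45 pairs, the 2 libraries farthest for 1 gene of each pair were left out, namely the gene listed first in the opening. This kept 40 positive, with a median of 0.484 and a lowest of -0.203, and the libraries left out depend on that order. The median was 0.481 without 5ELKO replicate 1 and 0.488 without 5ELKO replicate 2, and the number of pairs past the adjusted threshold ran from 9 to 16 when each library was left out in turn. It fell to 3 without 5EL replicate 1, ELKO replicate 1 and ELKO replicate 2 together, with a median r of 0.669 over the remaining libraries. ELKO replicate 3 was then the only library left in its group, so it equalled its group mean and added no deviation.

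**Figure D4:**
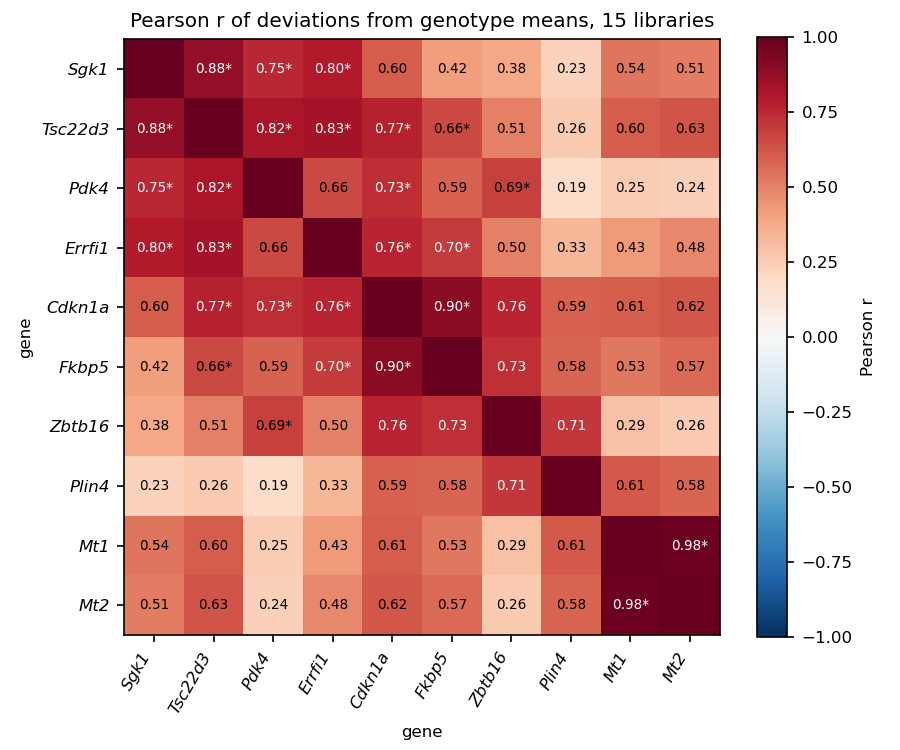
The matrix gives Pearson r of the deviations from genotype means over 15 libraries for each pair of genes (both axes), with red for positive values and an asterisk where the adjusted permutation p is under 0.05. All 45 pairs are positive, Sgk1, Tsc22d3, Pdk4 and Errfi1 stand at the upper left, and Mt1 with Mt2 reaches 0.98 at the lower right.

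Other known hormone targets outside the 10 varied with them. Of 20 listed targets, all tested, 19 had a positive median correlation with the 10 genes and 9 (45%) had one of 0.5 or more, beside 47.9% and 2.15% of all 15794 other genes. The highest were Arrdc2 (0.742), an arrestin-domain gene, Mfsd2a (0.722), the lipid transporter of the blood-brain barrier, Sult1a1 (0.700), a sulfotransferase, and Nfkbia (0.674), the inhibitor of NF-kB. Lcn2, an acute phase gene, was the exception at -0.186. These are descriptions over 15 libraries and were not tested. The lists were chosen with earlier results of these data known, and the other genes were not matched to the lists for spread. In contrast, of 15 tested genes for the receptor, its chaperones and co-regulators and for hormone handling, 4 had a positive median correlation and none reached 0.5. Nr3c1 itself was at -0.077, and Hsp90aa1 and Stip1, chaperones of the receptor, were at -0.311 and -0.378. Hsd11b1, which regenerates active hormone inside cells, and Nr3c2, the mineralocorticoid receptor, were the highest at 0.427 and 0.394.

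**Figure D5:**
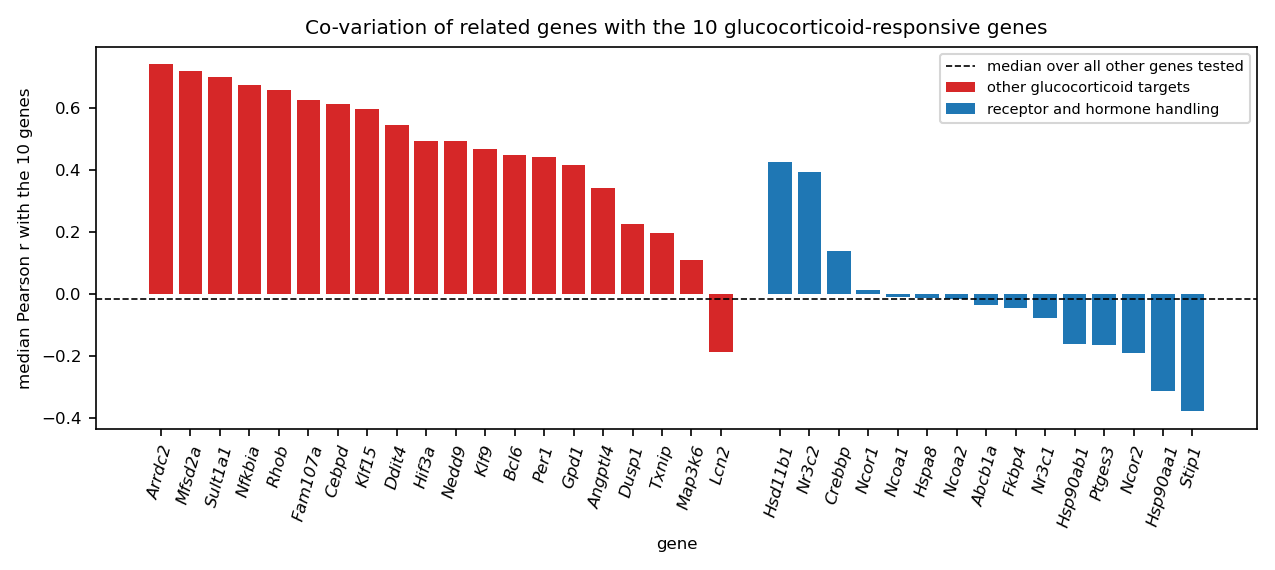
Bars give, for each gene (horizontal axis), the median of its 10 Pearson correlations with the 10 genes over 15 libraries (vertical axis), for other glucocorticoid targets in red and for receptor and hormone handling genes in blue. The dashed line is the median over all other genes tested, -0.015, and 19 of the 20 red bars and 4 of the 15 blue bars are above 0.

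Of the cell type lists, the microglial markers came closest to this pattern. Of the 10, 9 had a positive median correlation with the 10 genes, with a median of 0.432. The summed microglial level was lowest in replicate 2 of 5EL, of 5ELKO and of ELKO, at 12.55, 12.45 and 12.42. It was highest in 5EL replicate 4 (12.87), 5ELKO replicate 4 (12.97) and ELKO replicate 3 (12.58). The 10 genes were instead most often highest in 5EL replicate 3, 5ELKO replicate 1 and ELKO replicate 1. In EL the sum was lowest in replicate 1 and highest in replicate 3, as were most of the 10 genes. Astrocyte markers had a median of 0.207, oligodendrocyte markers 0.039, endothelial markers -0.169 and choroid plexus markers -0.212. The part of the microglial markers in the shared variation was not tested. Immediate early genes, which follow neuronal activity and handling, had a median of 0.039 over 9 genes.

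The genotype differences of these related genes were small. In 5EL against EL, where 7.70% of all genes were called, 2 of the 20 other targets were higher at the nominal limma threshold, the repressor Bcl6 (0.36 ± 0.11, SE) and Hif3a (0.31 ± 0.12), both with values in 5EL wholly above EL. Of the 15 receptor and hormone handling genes 2 were lower, Nr3c1 (-0.18 ± 0.06) and Hsd11b1 (-0.34 ± 0.13), both with overlapping ranges. All 4 had a limma adjusted p of 0.631. None of either list passed in 5ELKO against 5EL, ELKO against EL or 5ELKO against ELKO. In the interaction Hif3a alone passed the nominal threshold (-0.40 ± 0.17, limma adjusted p = 0.9996).

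For each of the 10 genes, the 5 genes outside the list with the highest correlation of deviations were identified among all genes tested, as a description. Sgk1 was nearest to Nfkbia (r = 0.972) and to Cebpd (0.927), a transcription factor, both in the list of other targets, and Nfkbia was also second for Tsc22d3 (0.921) after Rgcc (0.940). Bcl2l1, which encodes the survival protein Bcl-xL, was among the 5 nearest of Fkbp5 (0.928), Cdkn1a (0.906) and Pdk4 (0.818). Tma16 and Gpt2 were shared by Fkbp5 and Cdkn1a, at 0.897 and 0.895 for Fkbp5. Mt1 and Mt2 shared Crip1 (0.945 and 0.954), Tsc22d4 and Stxbp3. The nearest gene was Pcyox1 for Fkbp5 (0.949), Mxd4 for Errfi1 (0.979), Atp10a for Zbtb16 (0.951), Cdh19 for Plin4 (0.858) and Trp53inp1, a p53 target, for Pdk4 (0.852). Each of these values was picked as among the highest of 15794 over 15 libraries.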

How the data were processed

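Per the methods and the labels, thalamus from the right hemisphere of perfused mice was snap frozen, and polyA libraries passed FastQC 0.11.9, Trimmomatic 0.39, HISAT2 2.2.1 (GRCm38), SAMtools 1.16.1, featureCounts 2.0.3 (read pairs per gene name, unstranded) and DESeq2 1.38.3. The authors deposited 1 log2 value per gene and library, and the transform is not named. These values were used without change. Per the methods, 5EL and 5ELKO samples came from randomly chosen mice. For EL and ELKO the labels alone name the replicates, and p-values measure the spread between these samples.

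Genes were kept where 4 of 9 libraries reached 3.32 on the log2 scale (10 in linear terms) for 5ELKO against 5EL, fitted on those 2 groups alone, or where 3 of 15 did so for every other comparison. They were tested with limma 3.58.1 (R 4.3.3, eBayes with trend), with Benjamini-Hochberg adjustment over all genes. The study's thresholds, nominal p under 0.05 and a fold change over 1.2, were noted, and the first was used for calls. Single genes were also tested by two-sided exact permutation of libraries. Correlations used 100000 permutations within genotypes (numpy 2.4.6, scipy 1.17.1). Scripts were tested on simulated data. The 10 genes and the lists were chosen with earlier results of these data known. Named genes are the 10, list members past the nominal threshold and the 5 nearest genes by correlation; the related genes named for their median correlations were chosen after their values were seen. Not every list gene past the threshold is reported here. For EL and ELKO, deviations of libraries with equal numbers correlated over all genes (0.453, 0.325 and 0.742), so the numbers were taken as a possible pairing. For number 2 another library was the closer match, and the labels do not say what the numbers mark. In the other comparisons at least 1 pair was at or below 0.1. Alternatives covered filters, variance priors, centring, the replicate block, the groups fitted, an Xist covariate and left-out libraries.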

Additional observations from a re-analysis of the deposited data

Results flagged for a closer look

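Errfi1 was 9.46 in replicate 2 of 5EL and 9.88 to 9.94 in the other 4 libraries of that genotype. The gap to the nearest of them took 0.860 of the group's whole range, above Dixon's 95% critical value for 5 libraries. This was 1 of 20 groups checked (10 genes in 2 genotypes), and chance flags about 1 in 20. The same library was the lowest of its genotype for 6 of the 10 genes and the highest for Plin4.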

How the results depend on the processing

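Zbtb16 in 5EL against EL kept its direction and stayed past the nominal threshold under every alternative tried, from 0.75 to 0.99. No alternative put any of the 10 genes past the adjusted threshold, and left-out libraries gave 0 adjusted calls throughout. With the replicate block, 2 of the 10 genes passed the nominal limma threshold in 5ELKO against 5EL (Sgk1 at 0.16 and Zbtb16 at -0.39), beside 384 of all genes. There no library was closest to the one of its own number. In the interaction 1 of the 10 passed (Zbtb16 at -0.75, with 784 genes in all). In ELKO against EL, where a pairing was only assumed from correlated deviations, the block gave 997 genes. Counts of genes in this section are not shares, as the number tested in each alternative is not given.

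Fitting the 2 groups alone gave 4 of the 10 genes in 5EL against EL, beside 916 of all genes, and 173 genes in ELKO against EL. Without a filter on low values 912 genes passed in 5ELKO against 5EL in place of 392, 916 in ELKO against EL in place of 372, 935 in 5ELKO against ELKO in place of 375, and 964 in the interaction in place of 432. Without 5EL replicate 1 and ELKO replicate 2, 188 genes passed in ELKO against EL. Without these and ELKO replicate 1, an alternative chosen after seeing the data, Zbtb16 was -0.21 in ELKO against EL and 0.74 in 5ELKO against ELKO, where 1 of the 10 genes and 1838 of all genes passed, and 3 correlated pairs remained. Causes were not tested.

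Leaving out single libraries, the number of the 10 genes past the nominal threshold ran from 0 to 2 in 5ELKO against 5EL, was 0 in ELKO against EL and 1 in 5EL against EL, and ran from 0 to 3 in the interaction and from 0 to 1 in 5ELKO against ELKO. All genes passing numbered 321 to 526 in the first of these comparisons, and 194 to 1832, 354 to 3204, 269 to 1231 and 269 to 794 in the others in that order; the counts of 1832, 3204 and 1231 came without EL replicate 1. Correlated pairs numbered 9 to 16 and positive pairs 40 to 45. In ELKO against EL Zbtb16 ran from -0.068 (without ELKO replicate 1) to 0.64. Its difference in 5ELKO against ELKO ran from -0.10 to 0.60, and was -0.02 without 5ELKO replicate 1. The values carry no counts, so counting error was not given, and groups of 3 to 5 limit the precision of every difference.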
